A study of Mus musculus with 25 samples.

Results

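Epididymal white adipose tissue (eWAT), the intra-abdominal fat pad that lies along the epididymis, was compared with inguinal white adipose tissue (iWAT), the subcutaneous pad of the groin, in male wild type (WT) mice on a high-fat diet (HFD). The libraries were chosen by their titles, which name depot, genotype and diet, and gave 5 eWAT and 5 iWAT libraries, 10 of the 25 RNA-seq libraries of the series. The mice were C57BL/6N, named C57BL/6NJ in the treatment notes, and received a diet with 60% of its calories from fat for 16 weeks from 5 weeks of age. Both depots therefore share strain, sex, diet and genotype, and differ in site. The remaining libraries served only to ask whether the depot difference depended on diet or genotype. They were 4 eWAT and 3 iWAT libraries of WT mice on normal diet (ND), and 5 eWAT and 3 iWAT libraries of HFD-fed Acod1-/- mice, which lack the enzyme that makes itaconate, 2 of these iWAT libraries being labelled 17 and 18 weeks of diet. The labels number the libraries within a group but do not say whether equal numbers in eWAT and iWAT are 1 mouse, so p-values measure the spread between libraries.

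White fat stores triglyceride in adipocytes and secretes hormones such as leptin and adiponectin. Visceral pads such as eWAT are covered by a mesothelium and arise in part from cells that express the transcription factor Wt1, whereas subcutaneous pads lie under the skin and carry their own positional code of Hox and T-box transcription factors. In obese male mice eWAT is the pad known for dying adipocytes ringed by macrophages, and iWAT is the pad known for its capacity to acquire heat-producing beige adipocytes.

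The 10 libraries held 38.9 to 51.7 M (1e+06) counts on genes, with medians of 45.1 M in eWAT and 41.5 M in iWAT. Depot was the main axis of variation: the first principal component took 47.5% of the variance, with eWAT between -80.3 and -14.4 and iWAT between 27.3 and 50. Levels are given as CPM (counts on a gene per 1e+06 counts of its library, with normalized library sizes), differences as log2 fold change of eWAT over iWAT with its standard error (SE), and the threshold for a call was an adjusted p of 0.1. All libraries expressed the adipocyte hormones Adipoq, at 1060 to 3130 CPM, and Lep, at 2460 to 5740 CPM. Some libraries carried RNA of a neighbouring tissue. The summed level of 20 epididymis markers was 120 CPM in eWAT library 5 and 0.233 to 4.77 CPM in the other eWAT libraries. Skeletal muscle markers summed to 681 CPM in iWAT library 1 and 339 CPM in iWAT library 5, against 65.0 to 124 CPM in the other libraries of both depots. T cell markers summed to 170 CPM in iWAT library 5 and to 20 to 54.6 CPM elsewhere. Counts of called genes below are therefore also given without eWAT library 5 and iWAT libraries 1 and 5 where that moved them by more than 1.5 times. Acod1 had 0 to 9 counts in each of the 10 libraries, and 0 to 2 counts in each Acod1-/- library, so its own transcript gave no check of genotype at this depth. Because these are bulk tissues, more cells of a type and more RNA per cell cannot be told apart.

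Of 14414 genes tested with edgeR's quasi-likelihood test, 2051 were higher in eWAT (14.2% of those tested) and 1320 were lower (9.16%). The changes were asymmetric in size: 924 genes were higher by at least 1 on the log2 scale and 224 were lower by as much, and at 4 on that scale the counts were 33 and 21. In 1115 genes (7.74%) every eWAT library lay above every iWAT library, and in 676 (4.69%) every eWAT library lay below. The median log2 fold change over all tested genes was 0.00553.

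**Figure D1:**
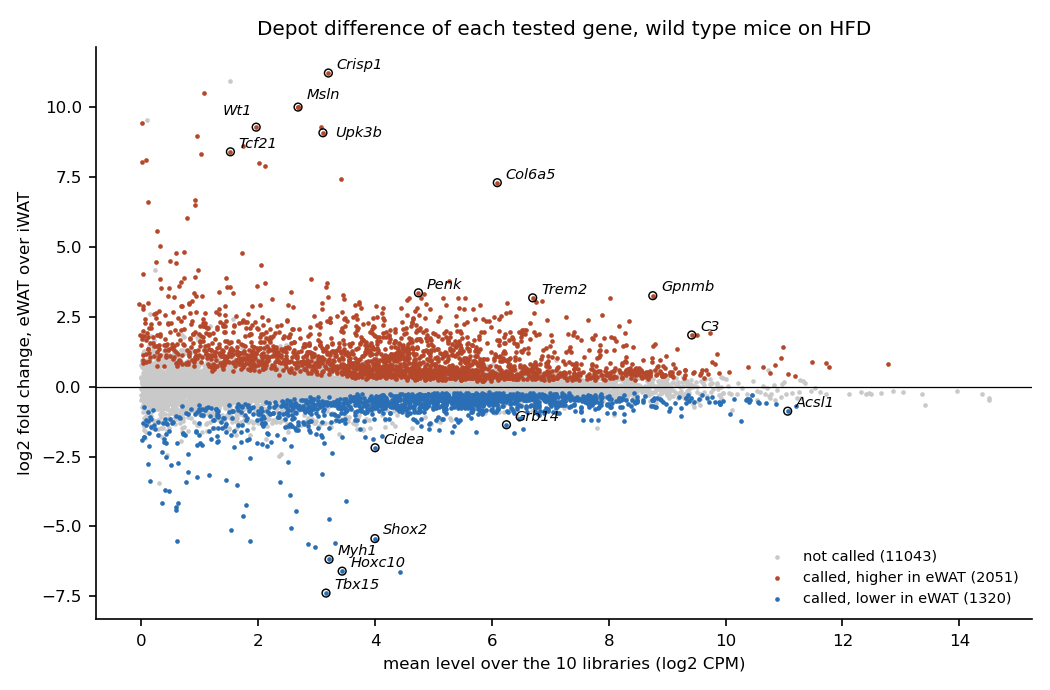
Log2 fold change of eWAT over iWAT (vertical axis) against the mean level over the 10 libraries in log2 CPM (horizontal axis) for each of the 14414 tested genes. Red marks the 2051 genes called higher in eWAT, blue the 1320 called lower and grey the rest, and the most extreme named genes are developmental, mesothelial, epididymal and muscle genes, while the inflammatory genes Trem2, Gpnmb and C3 and the adipocyte gene Acsl1 lie further right, at higher expression.

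Positional and developmental genes included some that were nearly absent from 1 depot. Tbx15, a T-box transcription factor of subcutaneous fat, measured 18.1, 18.1, 16.7, 18.5 and 17.4 CPM in iWAT libraries 1 to 5 and 0.0716, 0.0423, 0.205, 0.026 and 0.161 CPM in eWAT libraries 1 to 5. The depots did not overlap, and the iWAT libraries lay within a narrow band, giving a log2 fold change of -7.39 ± 0.36 (SE; adjusted p = 2.04e-06, edgeR). Shox2, a homeobox factor that also restrains lipolysis in subcutaneous fat, measured 34.0, 43.1, 11.7, 34.8 and 32.4 CPM in iWAT against 0.522 to 1.14 CPM in eWAT. Even the lowest iWAT library, number 3, lay far above the highest eWAT library (log2 fold change -5.44 ± 0.37, adjusted p = 1.14e-05). Lhx8, a LIM-homeobox gene, reached 8.75 to 14.4 CPM in iWAT and 0.0955 to 1.08 CPM in eWAT, and En1, another homeobox gene, 1.84 to 3.42 CPM and 0.00 to 0.406 CPM.

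In the opposite direction, Wt1, the transcription factor of visceral fat progenitors and mesothelium, measured 12, 6.86, 7.93, 6.02 and 6.16 CPM in eWAT. It had 1713 counts over the eWAT libraries and 2 over the iWAT libraries, a ratio of 815 with an exact counting interval of 225 to 6730. Tcf21, a basic helix-loop-helix factor of visceral preadipocytes, measured 4.15, 3.43, 8.3, 7.43 and 5.36 CPM in eWAT and had 3 counts in all of iWAT, a ratio of 397 (136 to 1930). Of the 23 tested of 38 listed developmental transcription factors, 6 were higher in eWAT and 12 lower, against 14.2% and 9.16% of all genes. Besides those named, Irx1 (-5.52 ± 0.86), Irx2 (-4.32 ± 0.65), Osr2 (-2.73 ± 0.40) and Twist2 (-0.85 ± 0.20) were lower in eWAT on the log2 scale, and Nr2f1 (1.25 ± 0.22), Osr1 (0.74 ± 0.21) and Gata6 (0.54 ± 0.21) were higher.

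The Hox genes, which encode position along the body axis, did not move as a block. Of 23 tested members 2 were higher in eWAT (8.7%, beside 14.2% of all genes), 6 were lower (26.1%, beside 9.16%) and 15 were not called. Hoxc10, a posterior member, measured 19.9, 21.1, 15.6, 27.9 and 22.7 CPM in iWAT against 0.0212 to 0.502 CPM in eWAT (log2 fold change -6.60 ± 0.54, adjusted p = 4.58e-05). Its paralog Hoxa10 reached 8.95 to 18.3 CPM in iWAT and at most 0.642 CPM in eWAT (-5.72 ± 0.67), and Hoxa9 was lower in eWAT by -4.74 ± 0.51. These 3 posterior genes separated the depots without overlap. Hoxc9 did so too with a smaller difference, 5.19 to 12.3 CPM in eWAT and 16.1 to 22.2 CPM in iWAT (-1.18 ± 0.26). Of the 23 members 5 lay lower in eWAT without overlap and 2 higher, beside 4.69% and 7.74% of all genes. Of the estimates 17 were negative and 6 positive. Lower means were not confined to posterior genes: Hoxc5 averaged 12 CPM in eWAT and 18.3 CPM in iWAT, and Hoxb5 5.21 and 8.51 CPM. Hoxc8, the neighbour of Hoxc9 in the same cluster, was strongly expressed in both depots and overlapped fully, at 69.9 to 233 CPM in eWAT and 136 to 196 CPM in iWAT (-0.10 ± 0.27, adjusted p = 0.845). The anterior genes Hoxa5 (0.82 ± 0.20) and Hoxc4 (1.25 ± 0.16) were higher in eWAT, Hoxa5 not passing in the fit of all 25 libraries (adjusted p = 0.15), and Hoxa5 measured 9.17 to 16.9 CPM there against 5.63 to 8.22 CPM in iWAT. Hox loci hold overlapping and antisense transcripts, and whether counting used strand is not given in the sources used here, so the level of a single Hox gene may include reads of a neighbour.

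**Figure D2:**
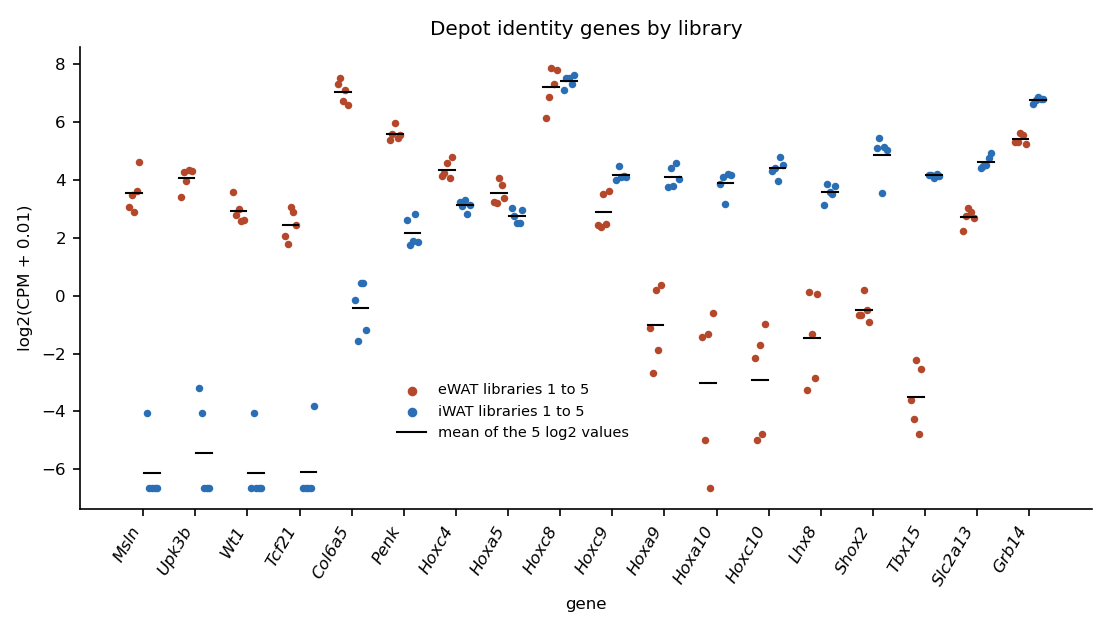
Level of 18 depot identity genes in each library as log2(CPM + 0.01), eWAT in red and iWAT in blue, with a line at the mean of the 5 log2 values. Msln, Upk3b, Wt1 and Tcf21 lie near the floor in iWAT, Tbx15, Shox2, Lhx8, Hoxc10, Hoxa10 and Hoxa9 lie far lower in eWAT, and Hoxc8 overlaps.

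To show the sequence that precedes genes with nearly all-or-none depot expression, the 250 bases before the RefSeq transcription start (GRCm38.p6) are printed for 1 mesothelial gene and 1 transcription factor higher in eWAT and 1 transcription factor higher in iWAT. Capitals mark matches, on either strand, to any of 4 common promoter motifs, namely the TATA box (TATAAA), the CCAAT box, the GC box (GGGCGG) and the E box that reads CAGCTG.
Upk3b chr5:136038246-136038495, plus strand: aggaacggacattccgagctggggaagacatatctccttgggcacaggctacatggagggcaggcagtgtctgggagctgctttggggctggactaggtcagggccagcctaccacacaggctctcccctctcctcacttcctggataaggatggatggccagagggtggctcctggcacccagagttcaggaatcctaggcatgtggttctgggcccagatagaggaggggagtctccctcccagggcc
Tcf21 chr10:22820144-22820393, minus strand: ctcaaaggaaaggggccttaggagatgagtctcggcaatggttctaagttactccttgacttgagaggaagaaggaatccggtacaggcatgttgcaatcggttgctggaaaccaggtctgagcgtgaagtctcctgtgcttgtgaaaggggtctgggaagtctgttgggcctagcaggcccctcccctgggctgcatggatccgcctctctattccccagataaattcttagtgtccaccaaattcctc
Shox2 chr3:66981772-66982021, minus strand: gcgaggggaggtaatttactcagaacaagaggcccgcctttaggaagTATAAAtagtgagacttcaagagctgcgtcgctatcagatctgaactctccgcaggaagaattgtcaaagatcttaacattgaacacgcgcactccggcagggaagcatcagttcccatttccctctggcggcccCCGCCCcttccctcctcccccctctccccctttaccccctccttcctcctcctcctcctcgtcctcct
Upk3b and Tcf21 held none of the 4 motifs in this window. Nor did Lhx8, also higher in iWAT, whose sequence was searched but is not printed. Shox2 held TATAAA at 203 bases before the start and GGGCGG on the opposite strand at 68 bases before it. Over the promoters of the same length, TATAAA was present in 12.4% of all 32851 and in 6.95% of the 8504 of tested genes, 7.02% of the 1253 of genes higher in eWAT and 9.66% of the 756 of genes lower in eWAT. GGGCGG was present in 32.7% of all, 58.7% of tested, 54.7% of higher and 59.8% of lower promoters, CCAAT in 33.8%, 36.9%, 35.4% and 33.6%, and CAGCTG in 13%, 11.5%, 12.7% and 12.6%. A match is a run of letters and not a binding site.

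Mesothelial genes, expressed by the serosal cell layer that covers intra-abdominal organs, marked eWAT. Of 13 listed and tested markers 12 were higher in eWAT and 1 was lower, and the median log2 fold change was 4.18. Msln, the surface protein mesothelin, measured 8.33, 11.2, 7.45, 12.3 and 24.8 CPM in eWAT and had 2 counts in all iWAT libraries against 2913 in eWAT, a ratio of 1390 (383 to 11400). Upk3b, a uroplakin of mesothelium, measured 10.6, 19.5, 15.5, 20.4 and 20 CPM in eWAT and at most 0.0994 CPM in iWAT (log2 fold change 9.09 ± 0.54, adjusted p = 5.64e-06). Both genes were present in every eWAT library and near 0 in every iWAT library. Muc16, Bnc1 and Upk1b had log2 fold changes of 8.11 ± 0.67, 8.04 ± 0.62 and 7.89 ± 0.80, and the retinoic acid synthesising enzyme Aldh1a2 2.99 ± 0.29. Cldn15 was the exception, lower in eWAT by -0.83 ± 0.14. Wt1 and Bnc1 stand in both this list and that of the developmental factors.

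Other genes of the smallest p were Col6a5, Penk, Grb14 and Slc2a13. Col6a5, an alpha chain of collagen VI, measured 157, 182, 105, 137 and 96.1 CPM in eWAT and 0.895, 0.328, 1.33, 1.34 and 0.424 CPM in iWAT, a log2 fold change of 7.30 ± 0.39 (adjusted p = 2.34e-06). Penk, the precursor of the enkephalin opioid peptides, measured 41.2 to 63.0 CPM in eWAT and 3.33 to 7.07 CPM in iWAT (3.36 ± 0.23, adjusted p = 1.45e-05). Grb14, an adaptor that binds and inhibits the insulin receptor, measured 39.9, 39.9, 48.7, 47.1 and 37.3 CPM in eWAT and 98.7, 109, 117, 111 and 112 CPM in iWAT. The SE of its difference was the smallest among these genes (-1.36 ± 0.10, adjusted p = 1.71e-05). Slc2a13, a proton-coupled myo-inositol transporter, measured 4.65 to 8.16 CPM in eWAT and 21.1 to 30.2 CPM in iWAT (-1.88 ± 0.16). None of the 4 genes overlapped between depots, which was a condition of their selection.

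Macrophage genes were higher in eWAT almost throughout. Of 14 pan-macrophage markers 13 were higher and none lower, with a median log2 fold change of 1.91 against 0.00553 over all genes. Adgre1, which encodes the F4/80 antigen, measured 381, 244, 83.6, 261 and 61.8 CPM in eWAT and 53.2, 27.1, 33.3, 65.5 and 19.9 CPM in iWAT. The ranges met, because eWAT library 5 lay below iWAT library 4, and the log2 fold change was 2.38 ± 0.50 (adjusted p = 0.0106). Mpeg1, a pore-forming protein of phagocytes, did not overlap, at 190 to 666 CPM in eWAT and 44 to 108 CPM in iWAT (2.55 ± 0.38). Cd68 (2.4 ± 0.41), Tyrobp (2.48 ± 0.39) and Fcgr1 (2.48 ± 0.54) were raised to a like degree, and Mertk, a receptor for apoptotic cells, was the member not called (0.56 ± 0.33, adjusted p = 0.284).

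Markers of lipid-associated macrophages, the Trem2-dependent cells that take up lipid of dying adipocytes, were also higher in eWAT. Of 17 markers 16 were higher in eWAT, all 16 without overlap, with a median of 2.09. Trem2 itself measured 389, 183, 97.6, 187 and 78.3 CPM in eWAT and 46.7, 17.7, 10.7, 21.4 and 6.64 CPM in iWAT (log2 fold change 3.18 ± 0.57, adjusted p = 0.00535). Gpnmb, a lysosomal glycoprotein, measured 1800, 845, 390, 562 and 310 CPM in eWAT against 19.6 to 180 CPM in iWAT (3.26 ± 0.62). In each depot library 1 was the highest for both genes. Spp1, which encodes osteopontin, had the largest change of the list (3.79 ± 0.75), and Mmp12, the macrophage elastase (3.19 ± 0.49), Atp6v0d2 of the lysosomal proton pump (3.04 ± 0.57), Itgax, which encodes CD11c (2.55 ± 0.39), and Lipa, the lysosomal acid lipase (1.71 ± 0.32), were higher as well. Mmp12 reached 1070 CPM in eWAT library 1 and 249 to 367 CPM in the other eWAT libraries. Fabp5 was not called (-0.17 ± 0.15).

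Markers of resident macrophages followed only in part. Of 14 members 4 were higher (28.6%, beside 14.2% of all genes) and none was lower. The median was -0.0412, with 6 positive and 8 negative estimates. Their summed level was 2440 to 4810 CPM in eWAT and 1830 to 3220 CPM in iWAT, with overlap. The members called were Gas6 (0.89 ± 0.13), Folr2 (1.16 ± 0.41), Mrc1 (0.90 ± 0.33) and Selenop (0.76 ± 0.24), and the count was 2 without eWAT library 5 and iWAT libraries 1 and 5 together. Without single libraries it was 1 to 5, being 1 or 2 without eWAT library 1, 2 or 4 or without iWAT library 1, 2, 3 or 5. Lyve1, a hyaluronan receptor of perivascular macrophages and lymphatic vessels, measured 15, 7.54, 52.2, 54.8 and 21.1 CPM in eWAT and 28.9, 14.5, 54.9, 63.0 and 18.7 CPM in iWAT (-0.26 ± 0.55, adjusted p = 0.791). Timd4 (-1.13 ± 0.77) and Cd163 (-0.29 ± 0.37) were likewise not called.

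Genes of antigen presentation and complement were partly higher in eWAT. Of 9 tested genes of MHC class II presentation 7 were higher, each without overlap, and the 7 log2 fold changes lay between 1.21 and 1.52. H2-Aa, an MHC class II alpha chain, measured 605, 714, 552, 910 and 511 CPM in eWAT and 236, 205, 165, 275 and 264 CPM in iWAT (1.52 ± 0.19, adjusted p = 0.000983). Cd74, the invariant chain, measured 651 to 1040 CPM in eWAT and 253 to 386 CPM in iWAT (1.36 ± 0.18), and Ciita, the class II transactivator, changed by 1.29 ± 0.27. Of 21 complement genes 11 were higher and none lower, with log2 fold changes from -0.974 to 2.63 and a median of 0.634. C3, the central complement component, measured 843, 1370, 876, 1370 and 897 CPM in eWAT and 370, 224, 278, 383 and 231 CPM in iWAT, with no overlap (1.85 ± 0.21, adjusted p = 0.000749). C3ar1, the C3a receptor (2.63 ± 0.47), C1qb (1.92 ± 0.37) and C7 (1.66 ± 0.41) were higher too, whereas C4b (0.30 ± 0.20), Cfb (-0.35 ± 0.31) and Cfd, the adipocyte protease adipsin (-0.67 ± 0.56), were not called.

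Chemokines changed in a selected manner. Of 26 tested, 7 were higher in eWAT (26.9%, beside 14.2% of all genes) and 2 were lower (7.69%, beside 9.16%). The ligands higher in eWAT were Ccl3 (2.54 ± 0.63), Ccl4 (2.44 ± 0.62), Ccl9 (1.77 ± 0.36), Cxcl16 (1.64 ± 0.31), Ccl6 (1.32 ± 0.38), Ccl2 (1.23 ± 0.44) and Cxcl12 (0.45 ± 0.14). Ccl2, the monocyte attractant, measured 29.0, 21.7, 25.3, 55.9 and 24.4 CPM in eWAT and 8.7, 8.77, 7.32, 33.2 and 8.6 CPM in iWAT, so that library 4 was the highest in both depots and the ranges overlapped (adjusted p = 0.0787, past 0.1 without eWAT library 1 or 4 or without iWAT library 1, 2, 3 or 5). Cxcl14, a chemokine made by adipose stroma, was lower in eWAT, at 8.91 to 24.4 CPM against 30.4 to 57.4 CPM in iWAT (-1.35 ± 0.26), as was Cxcl9 (-0.66 ± 0.23). Among acute-phase genes Orm2 (3.61 ± 0.48), Lcn2 (2.52 ± 0.68), Saa3 (2.43 ± 0.46) and Hp (0.83 ± 0.26) were higher in eWAT and Serpina3c (-0.64 ± 0.22) was lower, of 15 tested.

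Mast cell genes split the eWAT libraries. Of 8 tested markers 6 were higher in eWAT and 1, Kit, was lower (-0.60 ± 0.14). Cpa3, the mast cell carboxypeptidase, measured 33.7, 25.5, 1.91, 20.7 and 1.02 CPM in eWAT and 1.94, 1.79, 0.551, 3.89 and 0.868 CPM in iWAT (3.19 ± 0.89, adjusted p = 0.0323). eWAT libraries 1, 2 and 4 were high, whereas eWAT libraries 3 and 5 lay within the iWAT range. The chymases Cma1 (2.94 ± 0.76) and Mcpt4 (2.49 ± 0.76) were high in the same 3 eWAT libraries. Macrophage markers moved with this split: their summed level was 4720, 3300 and 3580 CPM in eWAT libraries 1, 2 and 4 and 1720 and 1400 CPM in eWAT libraries 3 and 5, against 456 to 1070 CPM in iWAT.

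Proliferation genes were higher in eWAT in 17 of 20 tested, with a median of 1.08. Mki67, the Ki-67 antigen, measured 62.8, 44, 22.2, 43.3 and 21.8 CPM in eWAT and 11, 22.4, 13.3, 29.3 and 11.9 CPM in iWAT, with overlap (1.14 ± 0.35, adjusted p = 0.0474). The same eWAT libraries 1, 2 and 4 were the highest, and the count depended on single libraries: it was 8 without eWAT library 1 or iWAT library 5, 9 without iWAT library 3, 11 without eWAT library 2, eWAT library 4 or iWAT library 1, and 9 without eWAT library 5 and iWAT libraries 1 and 5 together. Birc5 (1.61 ± 0.37), Bub1b (1.09 ± 0.25) and Mcm2 (0.96 ± 0.24) were among the members called. Among 10 tested B cell genes only Ighd was called (-1.38 ± 0.52) and among 14 T cell genes only Cd247 (-0.98 ± 0.34), shares of 10% and 7.14% beside the 9.16% of all genes that were lower. The medians rested on iWAT library 5: they were -0.664 for B cell and -0.723 for T cell genes, and 0.645 and 0.787 without that library, when 3 T cell genes were called higher and none lower. Cd3e measured 8.25 CPM in iWAT library 5 and 0.562 to 3.56 CPM in the other libraries of both depots.

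**Figure D3:**
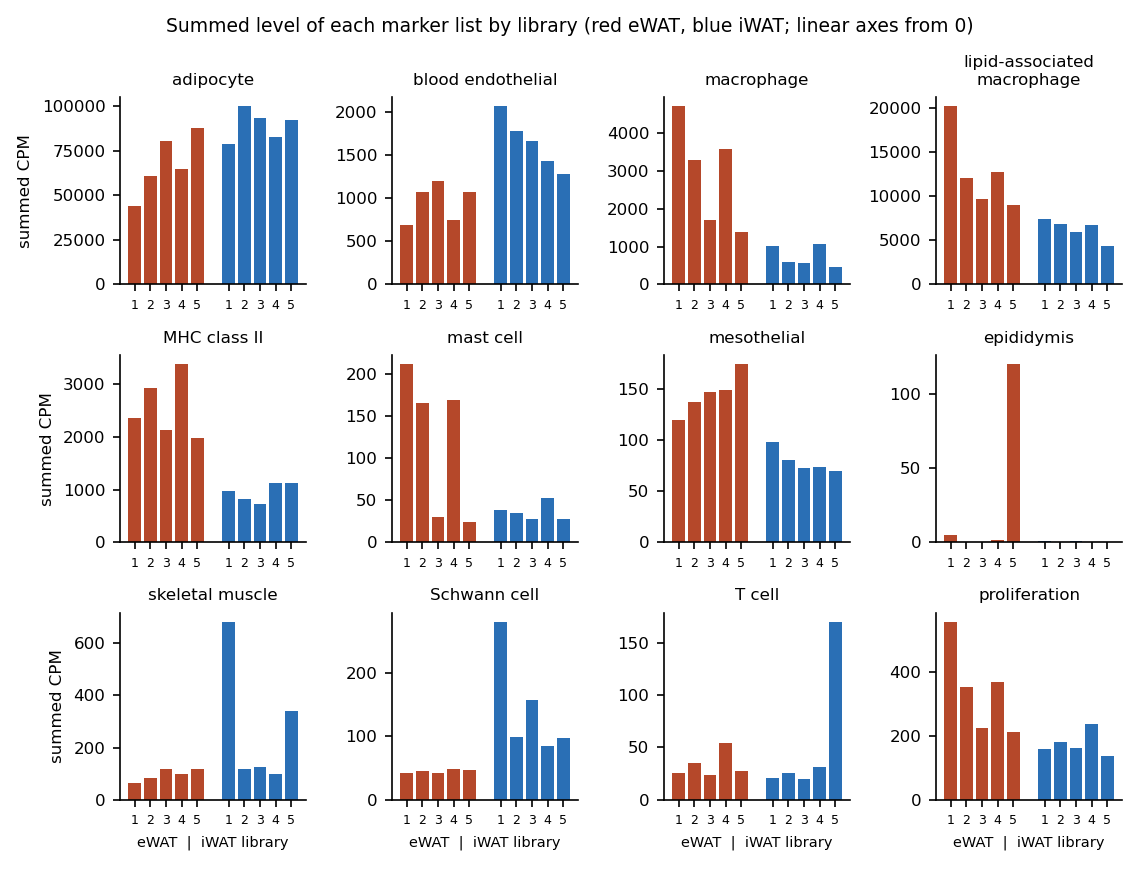
Summed level in CPM of 12 marker lists in each library, eWAT libraries 1 to 5 in red and iWAT libraries 1 to 5 in blue, on linear axes from 0. Macrophage, MHC class II and mesothelial sums are higher in every eWAT library, endothelial sums are lower, mast cell sums are high in eWAT libraries 1, 2 and 4, and single libraries stand apart for epididymis (eWAT 5), skeletal muscle (iWAT 1 and 5) and T cell markers (iWAT 5).

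Adipocyte genes lay in the opposite direction with small differences. Of 21 markers none was higher and 8 were lower, with a median log2 fold change of -0.475. Acsl1, which activates fatty acids with coenzyme A, measured 989, 1710, 1720, 1580 and 1550 CPM in eWAT and 2160, 2790, 3490, 3050 and 2360 CPM in iWAT, without overlap (-0.88 ± 0.18, adjusted p = 0.00985). Pnpla2, the adipose triglyceride lipase, measured 926 to 1810 CPM in eWAT and 1920 to 2590 CPM in iWAT (-0.61 ± 0.18). Slc2a4, the insulin-responsive glucose transporter (-0.70 ± 0.22), Plin4 (-0.69 ± 0.24), Plin1, the lipid droplet coat protein (-0.57 ± 0.20), Lipe, the hormone-sensitive lipase (-0.56 ± 0.21), Cebpa (-0.36 ± 0.13) and Retn, which encodes resistin (-0.98 ± 0.37, adjusted p = 0.0977), were the others. Lipe and Retn passed narrowly, and neither did so without eWAT library 2 or 4 or without any 1 iWAT library, nor Lipe without eWAT library 1. The count of lower markers was 2 to 5 without eWAT library 2 or 4 or without any 1 iWAT library. Adipoq measured 1060, 1990, 2530, 1870 and 2870 CPM in eWAT and 2480, 3130, 2820, 2500 and 2680 CPM in iWAT, overlapping through eWAT libraries 3 and 5 (-0.40 ± 0.22, adjusted p = 0.247). Lep (-0.27 ± 0.19) and Pparg, the master regulator of adipogenesis (-0.34 ± 0.15), were not called, although Pparg passed without eWAT library 5 and by DESeq2's Wald test. The summed adipocyte level was lowest in eWAT library 1, at 44200 CPM, and reached 61100 to 87700 CPM in the other eWAT libraries and 78700 to 100000 CPM in iWAT. eWAT library 1 also had the highest macrophage sum, and the part of cell composition in the adipocyte differences was not tested.

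Genes of mitochondrial fuel oxidation were lower in eWAT as a group. Of 26 genes of the tricarboxylic acid (TCA) cycle and its entry 18 were lower and none higher, with a median of -0.405. Cs, citrate synthase, measured 285, 375, 379, 408 and 370 CPM in eWAT and 439, 504, 538, 588 and 456 CPM in iWAT, without overlap (-0.47 ± 0.12, adjusted p = 0.0232). Idh3a, a subunit of isocitrate dehydrogenase, measured 208 to 323 CPM in eWAT and 373 to 455 CPM in iWAT (-0.55 ± 0.13). Dlat of pyruvate dehydrogenase (-0.65 ± 0.11) and Sdha, the catalytic subunit of succinate dehydrogenase (-0.46 ± 0.12), were lower, while Sdhb (-0.18 ± 0.10), Sdhc (-0.12 ± 0.11) and Sdhd (-0.24 ± 0.10) were not called. Of 26 fatty acid oxidation genes 17 were lower and none higher, 11 when iWAT library 3 was left out. Acadm, the medium-chain acyl-CoA dehydrogenase, measured 383, 478, 514, 429 and 439 CPM in eWAT and 652, 677, 756, 659 and 644 CPM in iWAT, without overlap (-0.60 ± 0.10, adjusted p = 0.00475). Cpt2 (-0.52 ± 0.15), Acadl (-0.49 ± 0.11) and Hadh (-0.57 ± 0.12) were lower as well, and Cpt1a, of the outer membrane step, was not called (0.09 ± 0.10).

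Branched-chain amino acid catabolism was lower in 12 of 22 genes and higher in none. The called members included Mccc2 (-0.60 ± 0.16), Acat1 (-0.62 ± 0.16), Pccb (-0.54 ± 0.17) and Ivd (-0.56 ± 0.17), while the first step enzyme Bcat2 (0.15 ± 0.14) and the dehydrogenase subunits Bckdha (-0.42 ± 0.17) and Bckdhb (-0.38 ± 0.17) were not called. Of 69 nuclear-encoded respiratory chain and ATP synthase subunits 10 were lower (14.5%, beside 9.16% of all genes). 1 subunit, Atp5g1, was higher, and the median was -0.106. The 10 included Ndufs1 (-0.54 ± 0.11), Cyc1 (-0.56 ± 0.15) and Atp5b (-0.49 ± 0.16), and the count was 5 or 6 without eWAT library 1 or 2, without iWAT library 2, 3 or 4, or without the 3 libraries with neighbouring tissue. None of the 13 mitochondrially encoded genes was called, with a median of -0.197 and estimates from -0.51 to -0.04.

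Lipid synthesis changed in part. Of 19 genes of fatty acid synthesis 5 were lower (26.3%, beside 9.16% of all genes) and 1, Thrsp (0.66 ± 0.21), was higher. Fasn, the fatty acid synthase, measured 896, 1730, 1780, 1430 and 1610 CPM in eWAT and 1260, 2000, 2390, 2180 and 1060 CPM in iWAT (-0.26 ± 0.25), and Acly, which supplies cytosolic acetyl-CoA, 183 to 321 CPM and 171 to 300 CPM (0.10 ± 0.19). Both overlapped fully. Pnpla3 (-1.02 ± 0.22), Slc25a1, the citrate carrier (-0.78 ± 0.25), and Acacb (-0.77 ± 0.24) were lower, and the count fell to 1 to 3 without eWAT library 1, 2 or 4 or without iWAT library 2, 3 or 4. Of 24 genes of triglyceride synthesis and lipolysis 8 were lower and none higher, 5 without eWAT library 2, eWAT library 4 or iWAT library 3. Among them Cidea, a lipid droplet protein of brown and beige adipocytes, measured 2.41, 4.93, 6.34, 10.5 and 4.68 CPM in eWAT and 13.9, 24.7, 34.1, 36.4 and 22 CPM in iWAT, without overlap (-2.19 ± 0.36, adjusted p = 0.00413). Plin5, which ties droplets to mitochondria, changed by -1.17 ± 0.20.

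Of 19 tested thermogenic genes 5 were lower in eWAT (26.3%, beside 9.16% of all genes) and 1, Acot11, was higher (1.27 ± 0.38). Besides Cidea these were Prdm16, the brown and beige fat determination factor (-1.23 ± 0.16), Elovl3 (-1.30 ± 0.42), Otop1 (-0.91 ± 0.23) and Ppara (-0.88 ± 0.29). Ucp1, the uncoupling protein, was under the filter, with 0.00 to 1.65 CPM in eWAT and 0.376 to 2.04 CPM in iWAT, and Ppargc1a measured 2.33 to 4.74 CPM and 4.21 to 7.32 CPM (-0.42 ± 0.24, adjusted p = 0.272). Insulin signalling genes were lower in 9 of 21 (42.9%, beside 9.16% of all genes) and higher in none. Irs1, the insulin receptor substrate, measured 20.3, 27.6, 27.8, 23.4 and 29.2 CPM in eWAT and 29.0, 37.4, 43.1, 42.5 and 50.7 CPM in iWAT, which met only where eWAT library 5 exceeded iWAT library 1 (-0.66 ± 0.15, adjusted p = 0.0153). Pde3b, the phosphodiesterase through which insulin restrains lipolysis (-0.74 ± 0.12), Pik3r1 (-0.50 ± 0.12) and Insr (-0.40 ± 0.14) were lower. Grb14, described above, is an inhibitor of the same receptor and was lower as well. Of 16 genes of adrenergic and natriuretic signalling 7 were lower, among them Adrb1 (-0.87 ± 0.28) and Pde4d (-0.85 ± 0.21), and Rgs2 was higher (1.32 ± 0.37). Adrb3, the adipocyte beta-adrenergic receptor, measured 52.5, 144, 294, 150 and 267 CPM in eWAT and 65.0, 69.3, 234, 164 and 171 CPM in iWAT (0.37 ± 0.45), with wide spread in both depots.

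Among secreted adipose factors Agt, angiotensinogen (2.71 ± 0.29), Lcn2, Gdf15 (2.35 ± 0.70) and Metrnl (1.38 ± 0.24) were higher in eWAT, and Retn, Apln (-1.16 ± 0.43) and Nrg4 (-0.62 ± 0.24) were lower, of 22 tested. The shares were 18.2% higher and 13.6% lower, beside 14.2% and 9.16% of all genes. The count of lower genes was 0 or 1 without eWAT library 1, 2 or 4 or without iWAT library 2, 3, 4 or 5, and 5 without eWAT library 5. Rbp4, the retinol carrier, measured 158 to 665 CPM in eWAT and 294 to 507 CPM in iWAT (0.11 ± 0.31). Of 9 genes tied to adipocyte expansion and caveolae none was higher and 3 were lower, Bmp3 (-0.93 ± 0.09), Npr3 (-0.57 ± 0.18) and Cav2 (-0.40 ± 0.14), a count that was 1 without eWAT library 4.

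**Figure D4:**
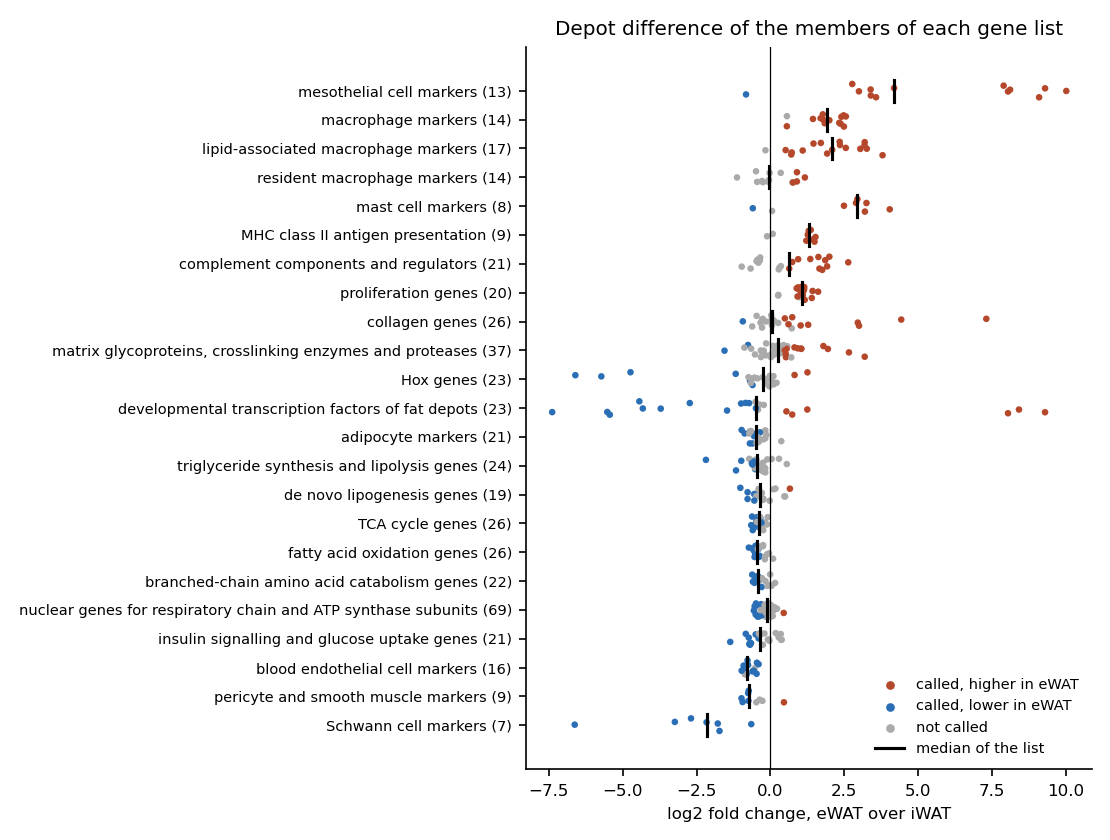
Log2 fold change of eWAT over iWAT (horizontal axis) of each tested member of 23 gene lists, with the number tested in brackets. Red points were called higher in eWAT, blue points lower and grey points were not called, and the black bar is the median of the list, which ranges from 4.18 for mesothelial markers to -2.16 for Schwann cell markers.

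Extracellular matrix genes differed by member rather than as a class. Of 26 collagen genes 9 were higher in eWAT (34.6%, beside 14.2% of all genes) and 1 was lower (3.85%, beside 9.16%), yet the median was 0.062. The fibrillar collagen Col1a1 measured 1080, 576, 465, 753 and 525 CPM in eWAT and 664, 549, 618, 922 and 481 CPM in iWAT, with full overlap (0.07 ± 0.24), and Col3a1 (0.04 ± 0.27) and Col6a3 (-0.26 ± 0.19) were also not called. The members called higher besides Col6a5 were Col4a6 (4.42 ± 0.79), Col8a2 (3.0 ± 0.45), Col6a6 (2.95 ± 0.27), Col4a5 (1.28 ± 0.25), Col8a1 (1.02 ± 0.26), Col6a1 (0.74 ± 0.13), Col16a1 (0.61 ± 0.20) and Col6a2 (0.49 ± 0.15). Col28a1 was lower (-0.94 ± 0.34). Of 37 further matrix genes 12 were higher, 7 without the 3 libraries with neighbouring tissue, and 2 were lower, 4 without eWAT library 5. The shares over the 10 libraries were 32.4% higher and 5.41% lower, beside 14.2% and 9.16% of all genes. Timp1 and Timp2, inhibitors of metalloproteinases, changed by 2.65 ± 0.48 and 1.04 ± 0.24, and Fbln1, a fibulin, by 1.94 ± 0.30. Lox, which crosslinks collagen, was lower in eWAT, at 131 to 205 CPM against 196 to 361 CPM (-0.76 ± 0.18, adjusted p = 0.0188). The stromal progenitor markers were mixed: Pdgfra, a receptor of fat progenitors, was higher (0.77 ± 0.23), Pi16, of interstitial progenitors, was lower (-1.13 ± 0.32), and Dpp4 was not called (-0.22 ± 0.24).

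Blood endothelial genes were lower in eWAT. Of 16 markers 14 were lower and none higher, with a median of -0.779. Pecam1, the adhesion molecule CD31, measured 94.9, 160, 147, 107 and 143 CPM in eWAT and 307, 259, 235, 213 and 176 CPM in iWAT, without overlap (-0.87 ± 0.18, adjusted p = 0.00921). Kdr, the main receptor for VEGF-A, measured 27.8, 75.2, 80.0, 59.8 and 93.0 CPM in eWAT and 126, 117, 145, 131 and 111 CPM in iWAT, again without overlap (-0.91 ± 0.25). Gpihbp1, which anchors lipoprotein lipase to capillaries (-0.93 ± 0.21), Robo4 (-0.97 ± 0.21) and Cldn5 (-0.88 ± 0.19) were lower too. Of 9 pericyte and smooth muscle markers 5 were lower, among them Rgs5 (-0.98 ± 0.22) and Notch3 (-0.94 ± 0.26), and Des was higher (0.46 ± 0.17). The count was 2 without the 3 libraries with neighbouring tissue and 3 without iWAT library 3.

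Schwann cell genes, which mark peripheral nerve, were lower in eWAT in all 7 tested, with a median of -2.16. Prx, which encodes the myelin protein periaxin, measured 1.38, 2.43, 1.41, 1.19 and 1.2 CPM in eWAT and 25, 5.65, 11.8, 2.55 and 4.42 CPM in iWAT (-2.69 ± 0.56, adjusted p = 0.0101). The depots did not overlap, although the iWAT libraries spread widely with number 1 the highest. S100b (-1.78 ± 0.26) and Cdh19 (-3.24 ± 0.72) were lower as well. Without eWAT library 5 and iWAT libraries 1 and 5 the count was 6. Skeletal muscle genes were lower in 10 of 17 tested, but the count was 2 without iWAT library 1, 4 without eWAT library 4 and 1 of 6 tested without the 3 libraries. Myh1, a fast muscle myosin, measured 86.3 CPM in iWAT library 1 and 0.882 to 1.71 CPM in the other iWAT libraries. Crisp1 and Cuzd1, the genes of the largest fitted change in eWAT, rested on eWAT library 5 in the same way, with 89.7 and 63.4 CPM there and at most 1.43 and 0.233 CPM in the other eWAT libraries.

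Whether the depot difference depended on diet was tested as an interaction in 1 fit of all 25 libraries, with 15034 genes. In that fit 1626 genes were higher and 1165 lower in eWAT on HFD (10.8% and 7.75%), and 2635 and 2137 on ND (17.5% and 14.2%), so that 31.7% of genes differed between depots on ND and 18.6% on HFD. The interaction of depot and diet was called in 4360 genes (29.0%). It was higher, with the HFD difference above that on ND, in 2108 of the 15034 genes and lower in 2252. These directional counts are the base for the list counts of higher or lower interactions below. Without single libraries the total ranged from 2963 (without ND iWAT library 2) to 4671 (without Acod1-/- iWAT library 3), and was 3693 without ND iWAT library 3. Of the genes higher in eWAT on HFD, 366 were also higher on ND (22.5% of the HFD genes and 13.9% of the ND genes) and 415 were lower on ND. Of those lower on HFD, 207 were also lower on ND (17.8% and 9.69%) and 227 were higher. The 642 genes of opposite direction all had a called interaction. The 3 ND iWAT libraries also carried lymph node RNA. Lymph node stroma markers summed to 373 to 653 CPM, against 2.52 to 31.8 CPM in HFD-fed WT iWAT. B cell markers summed to 1610 to 2310 CPM against 661 to 967 CPM, and T cell markers to 529 to 858 CPM against 20 to 170 CPM. Muscle markers were not high in all 3 ND iWAT libraries, at 68.4 to 15400 CPM against 99 to 681 CPM. Epididymis markers summed to 2.58 to 8720 CPM in ND eWAT libraries. These sums used library sizes without normalization for the ND libraries and normalized library sizes for the HFD-fed WT libraries. The part of lymph node, muscle and epididymis RNA in the interactions was not tested. Library numbers in the deposited headers fell into 2 series, and the labels do not say what these mark. Every ND library stood in the second series, but of the HFD-fed WT libraries only library 5 of each depot did. Diet and number series therefore could not be fully told apart in the interaction.

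Some depot identity genes kept their difference on both diets and others did not. Tbx15 had log2 fold changes in the fit of 25 libraries of -7.41 ± 0.53 on HFD and -6.58 ± 0.57 on ND, with no called interaction (adjusted p = 0.424), and Penk 3.34 ± 0.30 and 4.07 ± 0.40 (adjusted p = 0.259). The Hox genes had medians of -0.276 on HFD and 0.597 on ND, with 7 of 23 interactions lower and none higher, and the developmental transcription factors -0.519 and 0.149, with 6 of 23 lower and 1 higher. Mesothelial markers had medians of 4.17 and 4.34, Schwann cell markers of -2.18 and -1.78, and TCA cycle genes of -0.421 and -0.435, with 0 higher and 1 lower interaction among the 26 TCA genes. Col6a5 was higher in eWAT on both diets, more so on HFD (7.28 ± 0.64 and 4.28 ± 0.69, interaction 3.0 ± 0.79, adjusted p = 0.00973).

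The vascular difference had opposite signs. Endothelial markers had a median of -0.796 on HFD and 0.718 on ND, and 15 of 16 had a called interaction. Pecam1 averaged 130 ± 27.8 CPM (SD, n = 5) in HFD eWAT, 240 ± 50.2 CPM (n = 5) in HFD iWAT, 217 ± 61.4 CPM (n = 4) in ND eWAT and 175 ± 13.2 CPM (n = 3) in ND iWAT (interaction -1.20 ± 0.29, adjusted p = 0.00563, edgeR). Kdr averaged 67.0 ± 25.2, 127 ± 14, 155 ± 32.6 and 102 ± 13.6 CPM in the same order (interaction -1.52 ± 0.36). The macrophage markers had medians of 1.89 on HFD and 0.542 on ND, with 8 of 14 interactions higher, and lipid-associated macrophage markers of 2.06 and 0.445, with 5 of 17. Trem2 averaged 186 ± 122 CPM in HFD eWAT, 20.8 ± 15.8 CPM in HFD iWAT, 6.33 ± 4.67 CPM in ND eWAT and 0.742 ± 0.280 CPM in ND iWAT. Its fold between depots was alike on both diets, at 3.16 ± 0.68 and 3.10 ± 0.93 on the log2 scale, although its level differed (interaction 0.06 ± 1.18, adjusted p = 0.983). Mpeg1 did interact, at 2.53 ± 0.52 on HFD and -0.57 ± 0.60 on ND (adjusted p of the interaction 0.00733).

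MHC class II genes reversed, with a median of 1.28 on HFD and -1.77 on ND and a called interaction in all 9. H2-Aa averaged 656 ± 158 CPM in HFD eWAT, 231 ± 44.6 CPM in HFD iWAT, 180 ± 38.8 CPM in ND eWAT and 493 ± 88.8 CPM in ND iWAT, the group with lymph node markers. Proliferation genes had medians of 1.06 and -0.907, with 17 of 20 interactions. Thermogenic genes were further apart on ND, with a median of -1.83 against -0.433 on HFD, and 12 of 19 had an interaction. Cidea averaged 26.5 ± 9.36 CPM in HFD iWAT and 196 ± 159 CPM in ND iWAT, and 5.76 ± 2.99 and 6.05 ± 4.47 CPM in eWAT (interaction 2.81 ± 0.70, adjusted p = 0.00639). Collagen genes had a median of 0.0431 on HFD and 1.09 on ND, with 10 of 26 interactions lower. Slc2a13 and Grb14, lower in HFD eWAT, had differences of 0.02 ± 0.29 and -0.19 ± 0.26 on ND, with interactions of -1.92 ± 0.39 (adjusted p = 0.00127) and -1.19 ± 0.34 (adjusted p = 0.0147).

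In HFD-fed Acod1-/- mice 302 genes were higher and 271 lower in eWAT (2.01% and 1.80%, together 3.81%), from 5 eWAT and 3 iWAT libraries. Of these, 156 were higher (51.7%) and 114 lower (42.1%) in WT as well, which is 9.59% and 9.79% of the WT genes, and 3 that were higher in WT were lower in Acod1-/-. Some Acod1-/- libraries also carried neighbouring tissue. In eWAT epididymis markers summed to 3.28 to 1100 CPM and sperm and spermatid markers to 0.166 to 728 CPM. In iWAT muscle markers summed to 200 to 881 CPM and mammary and skin epithelium markers to 8.59 to 686 CPM. These sums used library sizes without normalization, and their part in the calls was not tested. The interaction of depot and genotype was called in 1 gene, Cxcl14 (0.00665%), by edgeR and in 96 by DESeq2's Wald test, and 1524 genes had an unadjusted p under 0.05. The count was 391 without Acod1-/- iWAT library 3, 224 without Acod1-/- eWAT library 5, 51 without Acod1-/- iWAT library 1 and 2 without Acod1-/- eWAT library 3. Cxcl14 averaged 17.0 ± 6.31 CPM in WT eWAT and 43.8 ± 9.62 CPM in WT iWAT, against 3.31 ± 1.73 and 60.5 ± 11.4 CPM in Acod1-/- (log2 fold changes -1.36 ± 0.29 and -4.18 ± 0.35, interaction adjusted p = 0.0285). Tbx15 was -5.71 ± 0.50 and Penk 3.53 ± 0.38 in Acod1-/- mice. The mesothelial median was 4.59, that of macrophage markers 0.929, that of lipid-associated macrophage markers 0.526 and that of endothelial markers -0.158. No member of these lists had a called interaction with genotype in the fit of all 25 libraries, and the medians were not tested against those of WT. Trem2 averaged 15.8 ± 19.7 CPM in Acod1-/- eWAT and 7.56 ± 4.16 CPM in Acod1-/- iWAT, and its interaction had an adjusted p of 0.471.

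**Figure D5:**
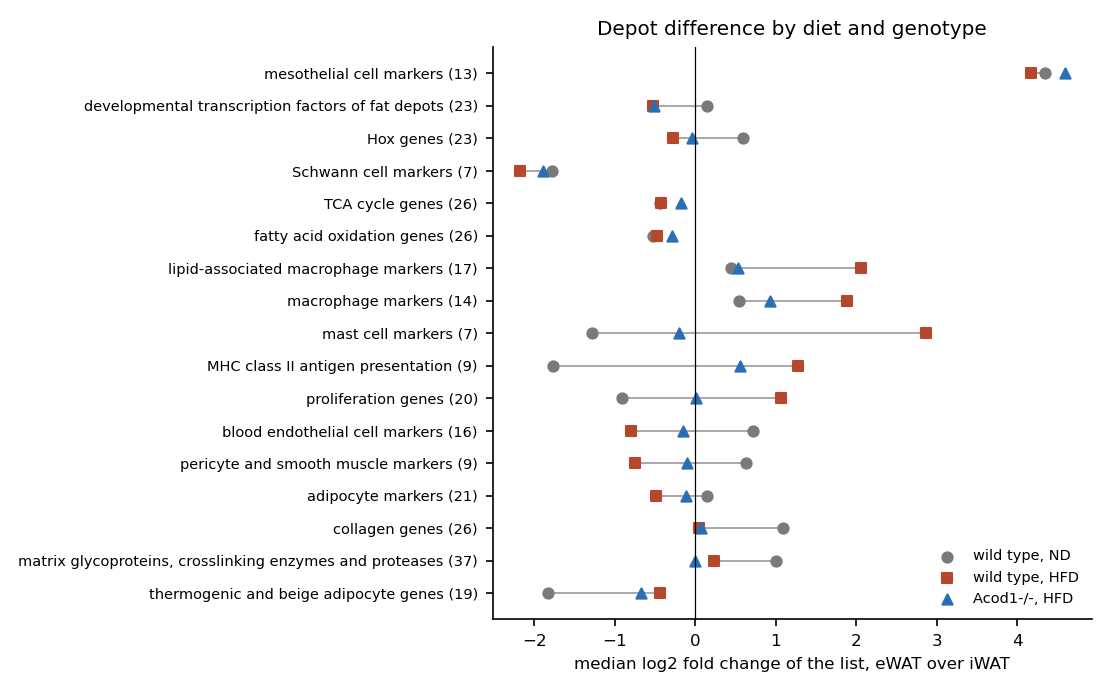
Median log2 fold change of eWAT over iWAT (horizontal axis) of 17 gene lists in ND-fed WT (grey circles), HFD-fed WT (red squares) and HFD-fed Acod1-/- mice (blue triangles), from 1 fit of 25 libraries, with the number of tested members in brackets. Mesothelial, Schwann cell, TCA cycle and fatty acid oxidation lists lie close together, whereas mast cell, MHC class II, proliferation and endothelial lists lie on opposite sides of 0 for ND and HFD in WT mice.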

How the data were processed

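RNA was taken from snap-frozen eWAT and iWAT. Per the paper's methods, the authors made directional mRNA libraries (NEBNext Ultra II), trimmed reads with cutadapt, removed contaminant reads and aligned to mouse GRCm38 (mm10) with STAR. The deposited files hold raw read counts per gene, not normalized, next to FPKM values, which the authors computed from the counts and transcript length and which were not used here. The counting program is not given in the sources used here. Gene symbols came from the GENCODE annotation of GRCm38 for 54723 of 54752 gene rows, and 5 rows of uncounted reads were left out of library sizes (reads on no feature were 6.41 to 9.97% in the 10 libraries).

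Counts of 5 eWAT and 5 iWAT libraries were fitted with edgeR (4.0.16, R 4.3.3), TMM normalization and a mean of at least 1 CPM, with the quasi-likelihood test and Benjamini-Hochberg adjustment over all genes. An adjusted p under 0.1 was called. Interactions came from 1 fit of all 25 libraries in 6 groups. DESeq2 (1.42.0), other scaling and filters, a block, libraries left out and the library number series of the file headers as a term were alternatives. The scripts were tested on simulated data. Named genes were 40 anchors plus, per direction, the 5 protein-coding genes of smallest p without overlap and the 5 of largest change with at least 5 CPM, and members of 49 gene lists. Some of these genes are not reported here, though they stay in the fits and list counts. The comparison, genes and lists were chosen with earlier results of these data known, so lists are given as counts and medians. No gene set test was run. Intervals and ratios of counts cover counting error only.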

Additional observations from a re-analysis of the deposited data

Results flagged for a closer look

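In 135 groups of 5 libraries (named genes and summed marker lists by depot), 18 had 1 library far from the other 4 by Dixon's ratio, with a cut of 0.71. That cut marks about 1 group in 20 where values are normal and groups independent. These were CPM on a linear scale, in groups that share genes, so the rate by chance is not known here. Several of the 18 stood in the same libraries. eWAT library 5 was the highest for Crisp1 (89.7 CPM), Cuzd1 (63.4 CPM), the summed epididymis markers (120 CPM), the summed sperm and spermatid markers (12.7 CPM) and Msln (24.8 CPM, the other eWAT libraries reaching 12.3 CPM). iWAT library 5 was the highest for Cd79a (13.8 CPM), Cd3e (8.25 CPM), Ppargc1a (7.32 CPM), the summed lymph node stroma markers (31.8 CPM) and the summed T cell markers (170 CPM). Library 4 was the highest for Ccl2 in eWAT (55.9 CPM) and in iWAT (33.2 CPM), and for Pdgfra in iWAT (57.5 CPM). eWAT library 1 was the highest for Mmp12 (1070 CPM). The others were Myh1 in iWAT library 1 (86.3 CPM), Hoxc9 in iWAT library 2 (22.2 CPM), Shox2 in eWAT library 3 (1.14 CPM) and the summed sperm and spermatid markers in iWAT library 3 (0.226 CPM).

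For 12 named genes the depot difference on HFD differed from that on ND in WT mice by the interaction test of edgeR. On the log2 scale the HFD difference exceeded the ND difference by 2.34 for Itgax (adjusted p = 0.0707), 4.44 for Cpa3 (0.0143), 3.0 for Col6a5 (0.00973), 2.81 for Cidea (0.00639) and 11 for Ucp1 (0.000812), of which Ucp1 and Cidea were lower in eWAT on ND (-11.6 and -5.02). Ucp1 averaged 0.072 ± 0.064 CPM (SD, n = 4) in ND eWAT and 233 ± 309 CPM (n = 3) in ND iWAT. Its fold on ND therefore rested on a level near 0 and on ND iWAT libraries that differed widely. The HFD difference also exceeded that on ND by 5.92 for Cd79a (0.0011) and 4.67 for Cd3e (0.00128), whose ND differences were -7.4 and -5.36 in libraries with lymph node markers. The HFD difference lay below that on ND for Adipoq (-1.07, adjusted p = 0.0184), Retn (-1.51, 0.0578), Aldh1a1 (-2.11, 0.00183), Grb14 (-1.19, 0.0147) and Slc2a13 (-1.92, 0.00127). For Cxcl14 the depot difference in HFD-fed WT mice was 2.81 above that in Acod1-/- mice (adjusted p = 0.0285).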

How the results depend on the processing

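Of 47 named genes, 34 kept direction and call in every alternative, and list medians moved by less than the spread between libraries in 818 of 855 values. The count of genes higher in eWAT was 2051 and stayed within 1.5 times of it, from 1453 at an adjusted p under 0.05 to 2414 with a replicate block, and from 1473 without iWAT library 3 to 2214 without eWAT library 5 among single libraries left out. The count lower in eWAT, 1320, was 853 to 1409 without single libraries (853 without iWAT library 3), 794 at an adjusted p under 0.05 and 810 without eWAT library 5 and iWAT libraries 1 and 5, an alternative chosen after seeing the data. The interaction of depot and genotype, called in 1 gene, was called in 96 by DESeq2's Wald test and in 1 to 391 without single libraries (2 without Acod1-/- eWAT library 3, 224 without Acod1-/- eWAT library 5, 51 without Acod1-/- iWAT library 1 and 391 without Acod1-/- iWAT library 3), so the count rests on single libraries. Deviations of same-numbered libraries correlated at 0.40, -0.083, -0.022, 0.56 and 0.17, and those of differently numbered libraries at -0.39 to 0.26. Numbers 1 and 4 thus exceeded every differently numbered pair, whereas the other numbers did not. These values did not settle whether equal numbers are 1 mouse. The labels do not say so, and numbers were not taken as pairs. With a replicate block the counts were 2414 higher and 2009 lower, 4539 for the diet interaction and 484 for the genotype interaction.

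Some estimates of genes that were not called changed sign. Without single libraries Hoxc8 ranged from -0.27 (without eWAT library 3) to 0.091 (eWAT library 1), Lyve1 from -0.59 (eWAT library 4) to 0.042 (iWAT library 4), Cd79a from -1.74 (iWAT library 3) to 0.52 (iWAT library 5), Cd3e from -1.19 (eWAT library 4) to 0.42 (iWAT library 5), Rbp4 from -0.10 (eWAT library 3) to 0.32 (eWAT library 1), Acly from -0.017 (iWAT library 5) to 0.20 (iWAT library 4), Col1a1 from -0.17 (eWAT library 1) to 0.23 (iWAT library 4) and Esr1 from -0.12 (eWAT library 5) to 0.093 (iWAT library 3). Without eWAT library 5 and iWAT libraries 1 and 5 the values were 0.68 for Cd79a, 0.55 for Cd3e, -0.21 for Rbp4, -0.059 for Acly and -0.061 for Esr1. In the first number series of the headers alone they were 0.70 for Cd79a, 0.64 for Cd3e, -0.092 for Rbp4 and -0.047 for Esr1. Rbp4 was -0.0027 with the block, and Esr1 was -0.0075 with DESeq2's size factors, -0.0076 with its Wald test and -0.0091 in the fit of 25 libraries. The causes were not tested. At this depth a gene with 3 counts or fewer in a depot has no reliable fold.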

Other observations

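Genes of secreted patterning signals were split between depots. Of 20 tested ligands and regulators of the TGF-beta, activin and BMP families 8 were higher in eWAT and 5 lower. These were 40% and 25%, beside 14.2% and 9.16% of all genes, and without eWAT library 5 and iWAT libraries 1 and 5 the counts were 5 and 2. Tgfb1 (0.85 ± 0.22), Tgfb3 (0.77 ± 0.12), Inhba (1.15 ± 0.35) and the BMP antagonist Nog (1.37 ± 0.39) were higher on the log2 scale, whereas Bmp2 (-0.68 ± 0.17), Bmp6 (-0.81 ± 0.24) and Bmp3 (-0.93 ± 0.09) were lower. Of 15 tested Wnt genes 4 were higher and 3 lower (26.7% and 20%, beside 14.2% and 9.16% of all genes). Sfrp1 (2.83 ± 0.35), Dkk3 (1.67 ± 0.39) and Wif1 (0.89 ± 0.31), which encode secreted Wnt inhibitors or related proteins, and Rspo1 (2.77 ± 0.46), a Wnt enhancer, were higher in eWAT, and Wnt10b (-1.77 ± 0.29), an inhibitor of adipogenesis, Wnt2 (-2.09 ± 0.69) and Dkk2 (-1.73 ± 0.44) were lower.

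Retinoid and steroid enzymes also differed. Aldh1a2, for retinoic acid synthesis, was higher in eWAT (2.99 ± 0.29), while Cyp26b1, which degrades retinoic acid, was lower (-1.70 ± 0.36), and Aldh1a1 was not called (-0.20 ± 0.17). Of 14 tested retinoid genes 5 were higher and 2 lower (35.7% and 14.3%, beside 14.2% and 9.16% of all genes). Among 13 tested steroid genes Star, which imports cholesterol into mitochondria, was higher (2.23 ± 0.41), and Akr1c18, a progesterone-inactivating reductase, was lower (-5.13 ± 0.73), with the receptor Esr1 not called (0.01 ± 0.19). Of 14 immediate early genes Atf3 (2.92 ± 0.51), Egr2 (1.94 ± 0.37), Egr3 (1.20 ± 0.40), Fos (1.19 ± 0.42) and Junb (0.73 ± 0.24) were higher, and Btg2 was lower (-0.31 ± 0.11). The 5 higher genes became 2 without eWAT library 4 or iWAT library 3, and 3 without eWAT library 1 or 2, without iWAT library 1 or 2, or without eWAT library 5 and iWAT libraries 1 and 5 together. Of 17 circadian genes 2 were lower (11.8%, beside 9.16% of all genes), among them Cry2 (-0.65 ± 0.14), and 4 were lower without eWAT library 5. No gene of 5 for red blood cells was called.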
